A study of Mus musculus with 12 samples.

Results

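The 9 genes described here mark or maintain blood stem and progenitor cells. They are Cd34, Hlf, Crhbp, Erg, Msi2, Bcl11a, Lmo2, Sox4, and Myb. They were taken as a named list, by gene symbol, from the FPKM table of all 12 RNA-seq libraries, and how they were lost after E2 withdrawal was followed in each genotype. All 9 are among the 23309 listed genes, and all 9 are among the 11516 genes that were tested because 2 or more libraries gave them 1 FPKM or more. FPKM is a read number per length of transcript and per depth of library, so levels of different genes can be set side by side on it.

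The cells were mouse bone marrow progenitors, enriched for c-Kit and immortalized with a retroviral fusion of the estrogen receptor and HoxB8 (ER-HoxB8), which holds them immature while estradiol (E2) is present. Every group carried ER-HoxB8 and grew in IL-3. Wild-type (WT) cultures were compared with cultures from mice transgenic for human HMGN1 (HMGN1-OE), each at 0, 36, and 96 h after E2 was withdrawn, with 2 libraries in each of the 6 groups. The mice were on a C57BL/6 background and the controls were wild-type littermates, per the methods of the study. The labels give no age or sex of the mice, and nothing in them ties a library to a clone or a single animal. The replicate numbers of the sample names do not appear in the columns, so the 2 libraries of a group are called A and B, and A of one group is not paired with A of another.

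Blood stem cells are held in an immature state by a small circuit of transcription factors, in which Lmo2 bridges DNA-bound partners, Erg belongs to the same regulatory circuit, and Myb drives the proliferation of progenitors. Surface CD34 and the regulators Hlf, Msi2, and Sox4 are high in stem or early progenitor cells and are switched off as cells mature. A progenitor held immature by HoxB8 keeps part of this program, and E2 withdrawal lets it mature into neutrophils.

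Every sample began from equally many cells, received synthetic ERCC RNAs as a spike-in, and the deposited values were normalized on those RNAs, so a fall in these values can hold a fall in the total RNA of the cells. The 30 ERCC RNAs that averaged over 1 FPKM lay between -0.04 and 0.03 of their own mean on the log2 scale in all libraries. The median FPKM of the tested genes ranged from 14.1 to 30.3 in the 8 libraries of 0 and 36 h and from 3.06 to 7.32 in the 4 libraries of 96 h. A gene without signal is listed near 0.1 FPKM, with a most frequent value per library of 0.0967 to 0.105. How deeply each library was sequenced is not known here. The WT libraries at 36 h stand apart from each other in most of the 9 genes, so the main counts or ranges that rest on them are also given without each. Library B kept Flt3, a receptor of early progenitors, at a level that lay near those of 0 h. The progenitor genes Kit and Gata2 did not. Kit had 71.1 and 63.3 FPKM in A and B, against 25.0 and 47.6 FPKM at 0 h. Gata2 had 68.4 and 53.1 FPKM, against 23.3 FPKM in both 0 h libraries. Whether the label of either library holds was not tested. In bulk samples, fewer cells that express a gene and less of its RNA per cell cannot be told apart.

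RefSeq promoters (GRCm38.p6, from 250 bases before to 50 after the annotated start, read 5′ to 3′ on the strand of the gene) were found for 8 of the 9 genes and not for Lmo2. Cd34 and Sox4 are shown because they had the largest log2 changes by 96 h in WT cells on FPKM scaled to the same library median, with 1 FPKM added. That order depends on the added 1 FPKM, because some of the genes ended near the level without signal. They were also the only ones of the 8 whose first listed promoter held any of the 5 motifs searched. Capitals mark the match.
Cd34, chr1:194938571-194938870, plus strand: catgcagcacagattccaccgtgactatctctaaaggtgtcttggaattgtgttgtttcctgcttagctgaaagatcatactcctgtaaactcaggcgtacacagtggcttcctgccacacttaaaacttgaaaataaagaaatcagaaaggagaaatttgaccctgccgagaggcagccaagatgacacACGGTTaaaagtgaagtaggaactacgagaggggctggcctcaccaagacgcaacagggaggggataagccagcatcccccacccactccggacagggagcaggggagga
Sox4, chr13:28953650-28953949, minus strand: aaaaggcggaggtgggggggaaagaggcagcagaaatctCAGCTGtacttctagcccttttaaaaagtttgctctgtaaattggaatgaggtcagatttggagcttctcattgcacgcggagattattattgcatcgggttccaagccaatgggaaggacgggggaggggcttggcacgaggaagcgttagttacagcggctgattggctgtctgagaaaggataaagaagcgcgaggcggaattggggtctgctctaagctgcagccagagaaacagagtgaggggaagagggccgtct
Each motif was searched on both strands, and no match overlapped another. The letters AACNGT, as bound by Myb family factors, were in the Cd34 promoter and in 21.2% of the 8530 promoters of tested genes. The E-box letters CAGCTG were in the Sox4 promoter and in 14.3% of those promoters. The Ets letters GGAAGT were in 30.6% of the promoters of tested genes and in none of the 8. The Runx letters TGTGGT were in 12.6% of them and in none of the 8. The Gata letters AGATAA were in 6.33% of them and in none of the 8. One of the later starts of Erg, chr16:95459299-95459598, held the Gata letters. G and C made up 50% of the Cd34 promoter and 52% of the Sox4 promoter, against 75% in Myb and 76.3% in Msi2, and the median of the 8530 promoters was 60.7%.

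In growing cells at 0 h, the 9 genes covered a wide range of levels. Cd34, the surface sialomucin that names the progenitor class, was the most abundant of them in both genotypes, with 493 and 604 FPKM in WT and 695 and 467 FPKM in HMGN1-OE libraries. Myb had 248 and 470 FPKM in WT and 369 and 238 FPKM in HMGN1-OE libraries. Lmo2, the LIM-only adaptor, had 214 and 294 FPKM in WT and 368 and 233 FPKM in HMGN1-OE libraries. These 3 genes stood above the 94th percentile of tested genes in every 0 h library, the lowest being Lmo2 at 94.1 in WT library B. Erg, an ETS family transcription factor, had 51.0 and 62.6 FPKM in WT and 99.3 and 57.3 FPKM in HMGN1-OE libraries. Msi2, an RNA-binding regulator of translation, had 39.1 and 38.8 FPKM in WT and 82.0 and 46.1 FPKM in HMGN1-OE libraries. Sox4, an HMG box transcription factor, had 26.5 and 39.99 FPKM in WT and 33.1 and 28.8 FPKM in HMGN1-OE libraries. The remaining genes were the stem cell factor Hlf, the hormone-binding secreted protein Crhbp, and the zinc finger repressor Bcl11a. Hlf had 13.95 and 12.8 FPKM in WT and 57.3 and 16.6 FPKM in HMGN1-OE libraries. Crhbp had 5.75 and 13.1 FPKM in WT and 37.6 and 18.1 FPKM in HMGN1-OE libraries. Bcl11a had 3.14 and 3.10 FPKM in WT and 4.42 and 4.74 FPKM in HMGN1-OE libraries. In the WT order of means the libraries of Myb and Lmo2, of Msi2 and Sox4, and of Hlf and Crhbp overlapped, and the other neighbours did not. In the HMGN1-OE order of means, Myb and Lmo2 overlapped, and so did each neighbouring pair in the run from Erg through Msi2, Hlf, and Sox4 to Crhbp.

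**Figure D1:**
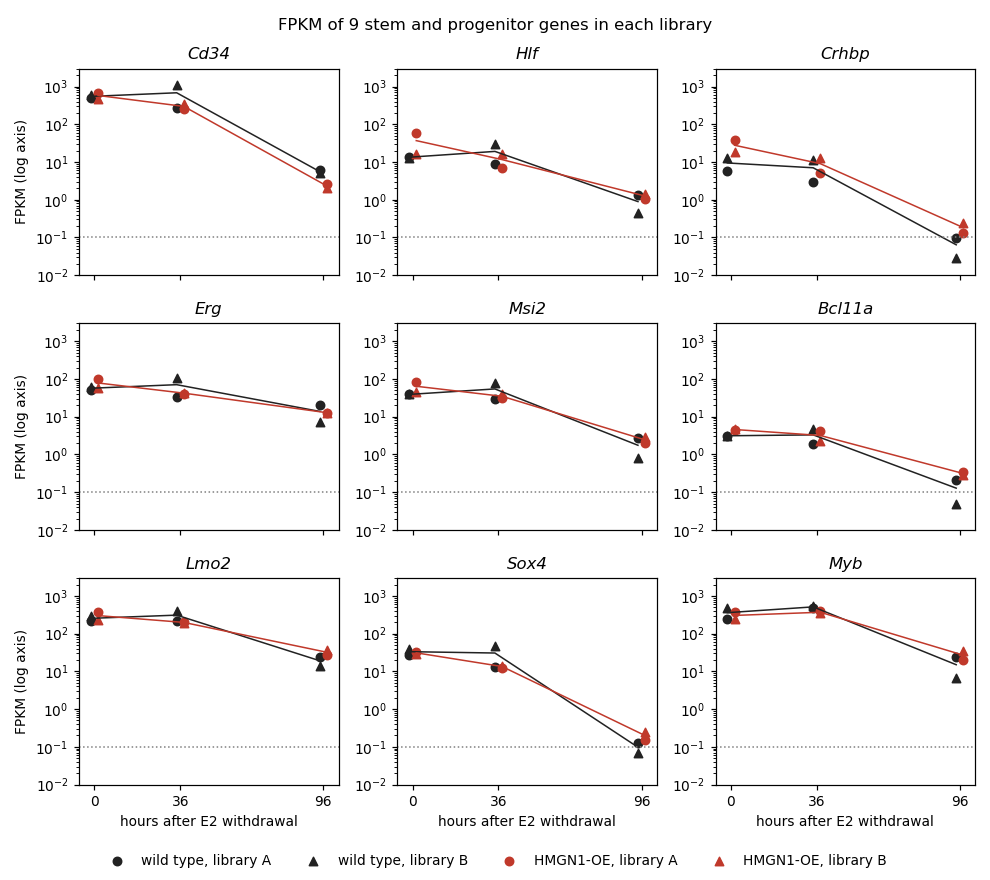
FPKM of the 9 genes on a log axis against hours after E2 withdrawal, with WT libraries in black and HMGN1-OE libraries in red, circles for library A and triangles for library B, lines through the group means, and a dotted line at the level listed for genes without signal. All 9 genes are lowest at 96 h in both genotypes, while at 36 h the WT libraries of 8 genes lie far apart and those of Myb lie close together.

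For WT cells, the study describes 36 h as the first time at which adding E2 back no longer reversed differentiation. It gives no such test of HMGN1-OE cells. At 36 h, the 8 genes other than Myb were below both 0 h libraries in both HMGN1-OE libraries. In WT cells no gene of the 9 was. Cd34 had 259 and 337 FPKM at 36 h in HMGN1-OE libraries, against 695 and 467 FPKM at 0 h, which was 51.3% of the 0 h mean (37.3% to 72.3% over the 4 pairs of libraries). Sox4 had 12.6 and 14.2 FPKM at 36 h in HMGN1-OE libraries, which was 43.4% of the 0 h mean (38.1% to 49.4%). Crhbp had 4.98 and 13.1 FPKM, or 32.5% (13.3% to 72.3%). Hlf had 7.13 and 16.1 FPKM, or 31.4% (12.5% to 97.0%), with a 0 h mean that rests on the 57.3 FPKM of library A. Erg had 41.0 and 43.1 FPKM, Msi2 had 30.4 and 39.0 FPKM, Lmo2 had 199.7 and 196 FPKM, and Bcl11a had 4.07 and 2.28 FPKM. Myb, with 387 and 351 FPKM, stood at 121% of its 0 h mean (95.1% to 162%). The groups of Myb overlapped and those of the other 8 genes did not. Such a separation downward was found for 9.47% of all tested genes. Of the 9 genes, only Crhbp passed the test, with a log2 change of -1.56 (SE 0.43, adjusted p = 0.0167, limma with Benjamini-Hochberg adjustment over all tested genes), where 1.12% of tested genes were called lower. That change ran from -2.18 to -0.95 without each library in turn, and it was not called without HMGN1-OE library A of 0 or 36 h, without either 96 h library of HMGN1-OE cells, or after median centring, scaling, or a pseudocount of 0.1. The other 8 did not pass. The median log2 change of the 9 genes was -0.83, and that of all tested genes was 0.06.

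In WT cells the 36 h libraries of the same genes disagreed. Cd34 had 264 FPKM in library A and 1105 FPKM in library B, on either side of the 493 and 604 FPKM at 0 h. Sox4 had 13.1 and 48.2 FPKM, Erg had 33.2 and 108 FPKM, Crhbp had 3.02 and 11.1 FPKM, and Hlf had 8.97 and 29.3 FPKM. Msi2 had 29.8 and 79.0 FPKM, Bcl11a had 1.92 and 4.67 FPKM, and Lmo2 had 216 and 402 FPKM. Library B was the higher one for all of these 8, by 1.86-fold in Lmo2 to 4.18-fold in Cd34. Myb had 476 and 546 FPKM and was above both 0 h libraries in both, which was so for 25.7% of tested genes. None of the 9 genes was called lower with limma in WT cells at 36 h, none had an unadjusted p under 0.05, and 0.261% of tested genes were called. None of them had both 36 h libraries below both 0 h libraries, against 0.356% of tested genes. limma without moderation called 0 as well.

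The WT libraries at 36 h differed from each other in more than these genes. After the median of each library was taken off on the log2(FPKM + 1) scale, library B was above A by 1.78 in Cd34, 1.53 in Sox4, 1.40 in Erg, 1.33 in Hlf, 1.31 in Crhbp, and 1.10 in Msi2, and these 6 genes exceeded the 95th percentile of tested genes, 0.69. Bcl11a (0.68) and Lmo2 (0.61) were just inside it, and Myb was at -0.08. Flt3, the progenitor cytokine receptor and the gene with the largest fall among the listed surface proteins, had 4.10 FPKM in A and 67.0 FPKM in B, against 47.5 and 67.3 FPKM at 0 h. In HMGN1-OE libraries Flt3 went from 82.2 and 64.6 FPKM at 0 h to 7.53 and 9.31 FPKM at 36 h. The summed FPKM of 14 listed neutrophil maturation genes was 2182 in A and 1087 in B, that of 8 mast cell and basophil genes was 2740 and 890.0, and that of 8 B lymphoid genes was 75.6 and 198. With library B left out, the log2 change of the 9 genes in WT cells from 0 to 36 h ran from -1.28 in Crhbp to 0.48 in Myb, and only Myb was above 0. With library A left out, it ran from 0.30 in Crhbp to 1.07 in Hlf, and all 9 were above 0. Neither way of leaving out a library gave a called gene on the deposited values. On FPKM scaled to the same median in every library, Sox4 was called lower without library B, by 1.54 (SE 0.196, limma adjusted p = 0.02), where 0.556% of tested genes were called. How far the mixture of cells in each library bears on these values was not tested.

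**Figure D2:**
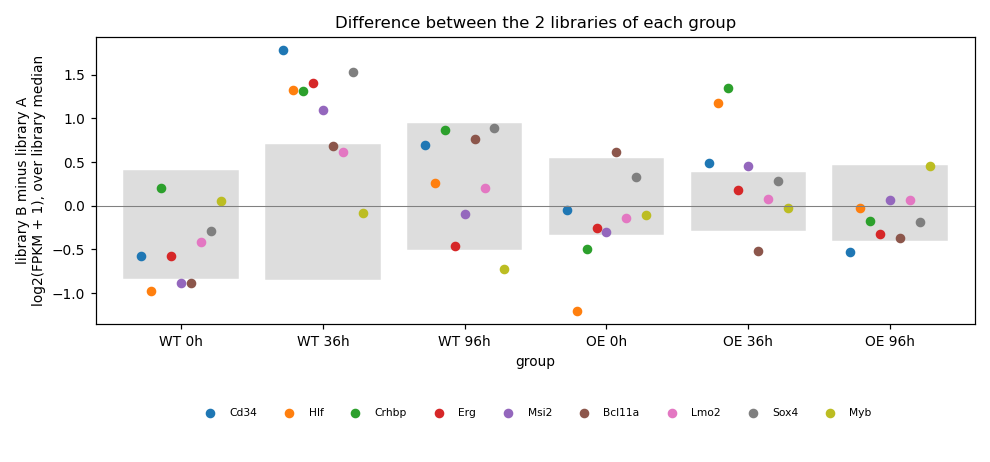
Difference between library B and library A of each group on the log2(FPKM + 1) scale after the median of each library was taken off, with 1 point per gene and a grey box from the 5th to the 95th percentile of all 11516 tested genes. In WT cells at 36 h, 6 of the 9 genes lie above the box, and in HMGN1-OE cells at 36 h, 4 do.

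Between 36 and 96 h all 9 genes fell in both genotypes, and at 96 h every library of every one of them was below every library of 0 and 36 h of its genotype. Both 96 h libraries were below both 36 h libraries for 90.4% of tested genes in WT and 87.6% in HMGN1-OE cells, and below both 0 h libraries for 80.9% and 82.8%, so this separation does not set the 9 genes apart. Cd34 ended at 6.18 and 4.99 FPKM in WT libraries, 1.02% of the 0 h mean (0.826% to 1.25%). In HMGN1-OE libraries it ended at 2.59 and 2.06 FPKM, 0.401% of the 0 h mean (0.297% to 0.555%). Its position among the tested genes went from the 97.4 and 98.4 percentiles at 0 h to 47.0 and 62.8 in WT libraries, and from 98.1 in both to 31.6 and 23.1 in HMGN1-OE libraries. Myb ended at 23.4 and 6.57 FPKM in WT and at 19.7 and 33.9 FPKM in HMGN1-OE libraries, which was 4.18% (1.40% to 9.42%) and 8.84% (5.35% to 14.3%) of the 0 h mean. Lmo2 ended at 24.3 and 13.9 FPKM in WT and at 27.8 and 36.3 FPKM in HMGN1-OE libraries, which was 7.53% (4.74% to 11.4%) and 10.7% (7.56% to 15.6%). Both were still above the median tested gene in every 96 h library, Myb at the 70.1 percentile or higher and Lmo2 at the 81.4 percentile or higher. Msi2 ended at 2.72 and 0.781 FPKM in WT and at 1.99 and 2.87 FPKM in HMGN1-OE libraries, or 4.49% (1.999% to 7.01%) and 3.80% (2.42% to 6.24%). Hlf ended at 1.35 and 0.441 FPKM in WT and at 1.05 and 1.46 FPKM in HMGN1-OE libraries, or 6.68% (3.16% to 10.5%) and 3.40% (1.83% to 8.83%). Erg kept the most, with 20.6 and 7.05 FPKM in WT and 12.9 and 12.7 FPKM in HMGN1-OE libraries, or 24.3% (11.3% to 40.4%) and 16.3% (12.7% to 22.5%).

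Crhbp, Sox4, and Bcl11a came close to the level listed without signal by 96 h, so no share of the 0 h mean is given for them. Crhbp was listed at 0.0995 and 0.0286 FPKM in WT and at 0.130 and 0.235 FPKM in HMGN1-OE libraries. Sox4 was listed at 0.126 and 0.0689 FPKM in WT and at 0.153 and 0.244 FPKM in HMGN1-OE libraries. Bcl11a was listed at 0.208 and 0.0472 FPKM in WT and at 0.341 and 0.282 FPKM in HMGN1-OE libraries. Both HMGN1-OE libraries were above both WT libraries for these 3 genes and for Lmo2, as they were for 10.2% of tested genes, and the values of the 3 are close to the level listed without signal.

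All 9 genes were called lower from 36 to 96 h in WT cells, where 86.3% of tested genes were, and in HMGN1-OE cells, where 64.9% were. In WT cells the log2 changes ran from -7.40 in Cd34 to -2.33 in Bcl11a without WT 36 h library A. Without library B they ran from -5.34 in Cd34 to -1.37 in Erg, whose call did not hold there. From 0 to 96 h all 9 were called lower in both genotypes as well, against 77.2% of tested genes in WT and 62.4% in HMGN1-OE cells (limma, Benjamini-Hochberg, adjusted p under 0.05). With most tested genes called, the number of calls does not set the 9 genes apart. The median log2 change from 0 to 96 h was -3.70 over the 9 genes and -1.75 over all tested genes in WT cells, and -3.83 and -1.28 in HMGN1-OE cells. With 1 FPKM added, Cd34 had the largest change of the 9 in both, -6.38 in WT and -7.43 in HMGN1-OE cells (SE 0.57 in each). In WT cells its place ahead of Sox4 rests on the added 1 FPKM. Sox4 had -4.93 and -4.73 (SE 0.47), a pair of values that the 1 FPKM added before the log makes smaller for a gene that ends near 0.1 FPKM. Bcl11a had -1.87 and -2.09 (SE 0.37), values that the added 1 FPKM keeps small for a gene at 3.14 and 3.10 FPKM in WT libraries at 0 h. Erg had -2.12 and -2.47 (SE 0.54), and in WT cells it was within its standard error of the median over all tested genes.

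**Figure D3:**
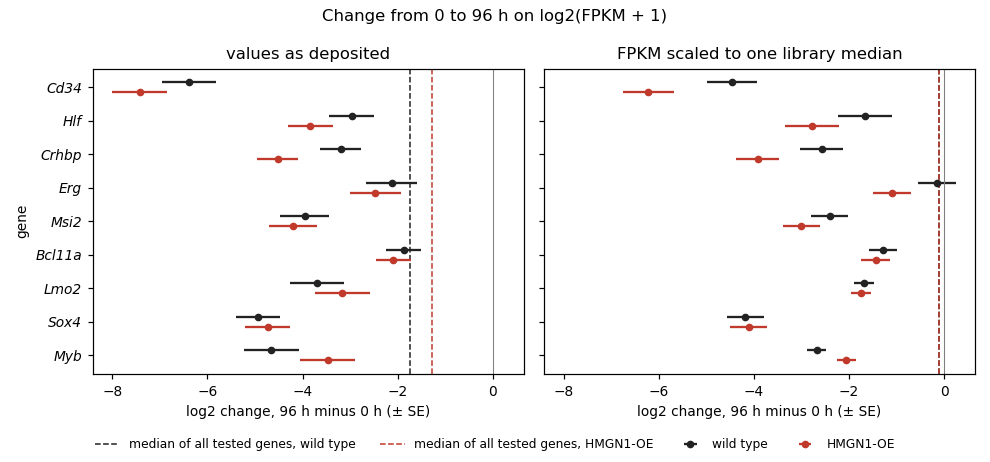
Change from 0 to 96 h in log2(FPKM + 1) for the 9 genes, with the standard error of limma as bars, WT in black and HMGN1-OE in red, for the deposited values and for FPKM scaled to the same median in every library, and dashed lines at the median change of all tested genes. All points lie below 0 in the left panel; in the right panel WT Erg, at -0.15, lies within its standard error of 0.

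To set each gene against the rest of its own library, FPKM was multiplied so that the median tested gene had the same value in all 12 libraries. On this scale 8 of the 9 genes were called lower from 0 to 96 h in WT cells, against 39.6% of tested genes, and all 9 in HMGN1-OE cells, against 37.3%. The exception was Erg in WT cells, with a log2 change of -0.15 (SE 0.40, limma adjusted p = 0.743). Relative to the library median, Erg stood 3.62-fold and 2.36-fold above it at 0 h and 2.98-fold and 2.31-fold above it at 96 h in WT libraries. In HMGN1-OE libraries it went from 4.67-fold and 3.94-fold to 2.24-fold and 1.73-fold, a log2 change of -1.09 (SE 0.40, adjusted p = 0.0368). Cd34 went from 35.0-fold and 22.8-fold above the library median to 0.893 and 1.63 times the median in WT libraries, and from 32.7-fold and 32.1-fold above it to 0.451 and 0.282 times the median in HMGN1-OE libraries. The log2 change was -4.46 in WT and -6.22 in HMGN1-OE cells (SE 0.54). Sox4 had -4.18 and -4.11 (SE 0.39), Msi2 had -2.41 and -3.00 (SE 0.39), Crhbp had -2.57 and -3.91 (SE 0.45), and Myb had -2.68 and -2.06 (SE 0.20). From 36 to 96 h on this scale, 8 genes were called lower in WT cells (all but Erg), against 38.4% of tested genes, and 7 in HMGN1-OE cells (all but Erg and Hlf), against 37.5%. When the median was taken off after the log instead, which moves genes near the level without signal upward at 96 h, 6 genes were called from 0 to 96 h in WT cells (33.8% of tested genes) and 8 in HMGN1-OE cells (32.5%). For 36 to 96 h it was 5 (33.7%) and 6 (32.3%).

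**Figure D4:**
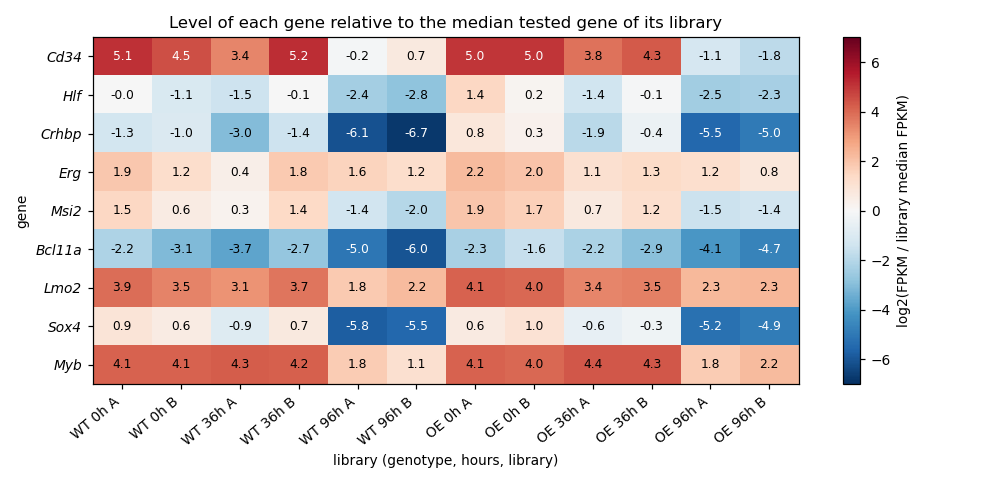
Level of the 9 genes in each of the 12 libraries as log2 of FPKM over the median FPKM of that library, red above and blue below the median. Cd34, Lmo2, and Myb are above 3 in all 0 and 36 h libraries, and Crhbp, Sox4, and Bcl11a are at -4.07 or lower in all 96 h libraries.

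The slopes before and after 36 h were compared within each genotype. Relative to the library median, Myb was as high or higher at 36 h than at 0 h in all 4 libraries (19.2-fold and 18.1-fold against 17.7-fold in both WT libraries, and 20.6-fold and 20.3-fold against 17.3-fold and 16.4-fold in HMGN1-OE libraries). It then fell to 3.38-fold and 2.15-fold in WT and 3.43-fold and 4.64-fold in HMGN1-OE libraries. The slope of Myb was steeper from 36 to 96 h than from 0 to 36 h, by 0.048 log2 units per hour in WT cells (SE 0.0077, limma adjusted p = 0.00683) and by 0.047 in HMGN1-OE cells (SE 0.0077, adjusted p = 0.00845). With all 12 libraries Myb was the one gene of the 9 called in this comparison, in both genotypes, where 16.9% of tested genes were called in WT and 14% in HMGN1-OE cells. Without WT 36 h library A, 5 genes were called in WT cells, namely Cd34, Msi2, Lmo2, Sox4, and Myb, against 11.4% of tested genes, and without library B only Myb was, against 2.48%. In HMGN1-OE cells Cd34 was called beside Myb when WT 36 h library A or B was left out, and no gene was called when HMGN1-OE 36 h library A or B was left out. On the deposited scale 7 genes were called steeper later in WT cells (all but Crhbp and Erg), against 73% of tested genes, and 1 gene, Cd34, in HMGN1-OE cells, against 1.62%. The WT count on that scale was 9 without WT 36 h library A, where 49.2% of tested genes were called, and 0 without library B, where 2.61% were. Hlf, Crhbp, and Sox4 had the largest early changes in HMGN1-OE cells relative to the median, -1.44 (SE 0.56), -1.55 (SE 0.45), and -1.16 (SE 0.39), but no gene of the 9 was called from 0 to 36 h on the scaled values in HMGN1-OE cells (4 had an unadjusted p under 0.05, and 0.191% of tested genes were called) or in WT cells (0 had an unadjusted p under 0.05, and 0% were called). Sox4 was the exception when a library was left out, called lower in HMGN1-OE cells without WT 36 h library A or B, and in WT cells without library B. With the median taken off, 7 genes had both 36 h libraries below both 0 h libraries in HMGN1-OE cells (all but Bcl11a and Myb), against 24% of tested genes, and 1 gene, Crhbp, in WT cells, against 13.9%.

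The genotypes were compared at each time and in their rates. At 0 h, Hlf, Crhbp, Msi2, and Bcl11a were higher in both HMGN1-OE libraries than in both WT libraries, a separation that 3.26% of tested genes had. Only Crhbp passed the test there, with a log2 difference of 1.48 (SE 0.43, limma adjusted p = 0.0399), where 1.36% of tested genes were called. It ran from 0.94 to 2.01 without each library in turn, and was not called without library A of either genotype at 0 h or without any one of the HMGN1-OE libraries of 36 and 96 h. Hlf was higher by 1.15 (SE 0.47, adjusted p = 0.503; from 0.29 to 2.02 without each library in turn), Msi2 by 0.65 (SE 0.51, adjusted p = 1.0; from 0.24 to 1.06 without each library), and Bcl11a by 0.44 (SE 0.37, adjusted p = 1.0), and these did not pass. On the scaled values the Crhbp difference was 1.57 (SE 0.45, adjusted p = 0.476) and was not called. Hlf, Crhbp, Erg, and Bcl11a are part of a stem cell gene list that the study itself examined in these 0 h libraries, so their level there is not independent evidence, and neither is that of Msi2, which the study also names in HMGN1-OE progenitors. None of the 9 genes was called between genotypes at 36 h (1.26% of tested genes were) or at 96 h (0.669%), none had an unadjusted p under 0.05 at either time on the deposited values, and limma without moderation called 0 at both. At 96 h 2 genes had an unadjusted p under 0.05 after median centring or scaling, with 0 called, and Myb was called on both scales when WT 96 h library A was left out. The 36 h difference, HMGN1-OE minus WT, was below 0 in 7 genes as deposited and in 2 after median centring or scaling. Its median over all tested genes was -0.536 as deposited, and 84.4% of them had both HMGN1-OE libraries below both WT libraries. As deposited, it was below 0 in 9 genes without WT library A, down to -1.90 in Cd34, and in 2 genes without library B, where Crhbp reached 1.19. On the scaled values it was below 0 in 6 genes without library A, down to -1.15 in Cd34, and in 0 without library B. At 96 h Cd34 was lower in both HMGN1-OE libraries than in both WT libraries, as 2.97% of tested genes were, by 0.98 on the log2 scale (SE 0.57, adjusted p = 0.859) as deposited and by 1.57 (SE 0.54, adjusted p = 0.14) on the scaled values.

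A difference between genotypes in how much was lost was not detectable for any of the 9 genes. The interaction of genotype and time called 0 of 9 from 0 to 36 h, where 0.504% of tested genes were called, 0 of 9 from 36 to 96 h (0.547%), and 0 of 9 from 0 to 96 h (0.677%). With limma at an unadjusted p under 0.05 there were 1 (Hlf), 0, and 1 (Crhbp), and limma without moderation called 0 in each. From 0 to 36 h the change in HMGN1-OE cells minus that in WT cells was below 0 for all 9, from -1.71 (SE 0.66) in Hlf to -0.26 (SE 0.82) in Myb, and the median over all tested genes was -0.41. It was below 0 for 7 genes after median centring and for 8 after scaling. Without WT 36 h library B, Cd34 was at 0.10, Sox4 at 0.11, and Bcl11a at 0.046 as deposited, and without library A all 9 were below 0, with 0 called either way. From 36 to 96 h the deposited values were below 0 for 0 genes without WT library A and for 4 without library B, from -1.15 in Cd34 to 1.35 in Myb, with 0 called either way, and the median over all tested genes was 0.922 with all libraries. After scaling, 2 genes were below 0 without library A and 8 without library B, where Cd34 was at -2.19, again with 0 called. From 0 to 96 h it ran from -1.32 (SE 0.60) in Crhbp to 1.19 (SE 0.82) in Myb, with a median of 0.51 over all tested genes. Without each library in turn it was -1.86 to -0.79 in Crhbp, 0.34 to 2.03 in Myb, and -1.73 to -0.0014 in Hlf. Crhbp ended near the level without signal in both genotypes, so its value cannot be told apart from its difference at 0 h. On the scaled values the largest size was that of Cd34, -1.76 (SE 0.76, adjusted p = 0.351). The smallest p that an exact permutation test can give for 2 libraries against 2 is 0.333, and these tests rest on the spread that limma shares over genes. On the deposited values the spread of a gene between its own libraries did not enter.

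Other stem and progenitor genes were counted from lists. Of 25 listed stem cell transcription factors, 19 were tested, and from 0 to 96 h 10 were called lower and 1 higher in WT cells, with the same 2 numbers in HMGN1-OE cells. Of all tested genes, 77.2% and 62.4% were called lower, and on the scaled values 39.6% and 37.3%. Called higher were 496 of the 11516 tested genes in WT and 585 in HMGN1-OE cells, and on the scaled values 3741 and 3394. These numbers are also the background for the counts called higher in the lists that follow. The median log2 changes of -1 and -1.03 were smaller than those of all tested genes. After scaling 4 were lower and 7 higher in WT cells, and 5 and 7 in HMGN1-OE cells. Mycn, which drives progenitor growth, went from 66.5 and 88.5 FPKM at 0 h to 0.322 and 0.190 FPKM at 96 h in WT libraries and from 76.2 and 54.7 FPKM to 0.211 and 0.331 FPKM in HMGN1-OE libraries. Hmga2, a chromatin protein of fetal stem cells, was listed at 0.117 FPKM or less in all 96 h libraries, from 8.57 to 23.3 FPKM at 0 h. Of 14 tested surface proteins, 8 were called lower and 1 higher in WT cells (77.2% of all tested genes were lower) and 9 and 1 in HMGN1-OE cells (62.4%). After scaling these were 5 and 4 in WT cells, and 5 and 2 in HMGN1-OE cells. Flt3 was listed at 0.257 FPKM or less in all 96 h libraries. Angpt1, a ligand of the Tek receptor, had a log2 change of -4.51 in WT and -5.67 in HMGN1-OE cells, and Tfpi, an inhibitor of coagulation, had -4.47 and -3.46 (all called with limma).

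The RNA-binding and chromatin reader list had 5 tested genes of 9, and all 5 were called lower in both genotypes, with medians of -2.83 in WT and -2.33 in HMGN1-OE cells, beside 77.2% and 62.4% called lower and medians of -1.75 and -1.28 over all tested genes. Mllt3, a reader of histone acylation, had -3.54 and -3.81, Syncrip, an RNA-binding protein, had -3.25 and -2.33, and Rbpms, another, had -2.83 and -2.42. On the scaled values all 5 kept a call in HMGN1-OE cells and 4 in WT cells, Rbpms not (adjusted p = 0.0618). Of 12 complex partners of Lmo2 and Erg, all tested, 10 were called lower and 1 higher in WT cells (77.2% of all tested genes were lower), and 7 and 0 in HMGN1-OE cells (62.4%), and on the scaled values 6 and 4, and 7 and 5. Tal1, the bHLH factor bridged by Lmo2, had -3.24 in WT and -2.62 in HMGN1-OE cells, its dimer partner Tcf12 had -2.97 and -2.22, and Ldb1, which binds the LIM domains of Lmo2, had -2.79 and -2.33. Of the Myb coactivators and targets, 8 of 9 were tested, and 5 were called lower in WT (77.2% of all tested genes were) and 4 in HMGN1-OE cells (62.4%), none higher. After scaling 3 were lower and 3 higher in each genotype. Myc had -4.42 and -3.37, Mat2a, which makes S-adenosylmethionine, had -3.65 and -2.58, and Bcl2, an inhibitor of apoptosis, had -2.50 and -2.59.

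The relatives of the 9 genes were counted in the same way. Of 19 listed relatives 8 were tested, and 5 were called lower in each genotype, with 0 higher, beside the 77.2% and 62.4% of all tested genes, and on the scaled values 1 was lower and 3 higher in WT cells and 2 and 3 in HMGN1-OE cells. Fli1, the other expressed ETS factor of the Erg family, had 25.8 and 60.5 FPKM at 0 h and 21.7 and 8.74 FPKM at 96 h in WT libraries, and 32.2 and 22.5 FPKM, then 17.8 and 22.1 FPKM in HMGN1-OE libraries. On the scaled values Fli1 was called higher by 0.53 in WT and 0.96 in HMGN1-OE cells, while Erg was at -0.15 and -1.09. Nfil3, a repressor that binds the same DNA sites as Hlf, was called higher on those values by 2.49 and 1.42, and its FPKM of 6.61 and 11.95 in WT libraries at 0 h and 20.4 and 8.98 at 96 h overlapped. Lmo4 had 111 and 231 FPKM at 0 h and 57.4 and 23.9 FPKM at 96 h in WT libraries, and on the scaled values its changes of -0.04 and -0.24 did not pass the test (adjusted p = 0.8 and 0.168). Mybl2 had log2 changes of -2.72 in WT and -1.49 in HMGN1-OE cells as deposited, against -4.66 and -3.47 for Myb, and Tef, the PAR bZIP relative of Hlf, had -2.02 and -1.95. Crh, Crhr1, and Crhr2, the hormone that Crhbp binds and its receptors, were listed at the level without signal in all 12 libraries. Msi1, Bcl11b, Podxl, and Sox12, the highest relatives of Msi2, Bcl11a, Cd34, and Sox4, had means of 0.380, 0.101, 0.359, and 0.224 FPKM and were not tested.

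Across the 12 libraries, with the median of each library taken off, the genes whose course was most like that of a member were Mbtd1 for Cd34 (Pearson r = 0.994), Nudt7 for Hlf (0.98), Rasl11a for Crhbp (0.968), Calcrl for Erg (0.931), Gdf11 for Bcl11a (0.923), Slc39a10 for Sox4 (0.996), and Ahsa1 for Myb (0.999). Mrps31 was the closest to both Msi2 and Lmo2 (0.992 in each). Among the 9 themselves, the highest r was 0.982 between Msi2 and Lmo2, and the lowest was 0.0561 between Bcl11a and Myb. These are descriptions over 12 libraries that share 6 groups and the drop at 96 h, each the best of many genes, and carry no p.

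The markers of other cell types show what the cultures held as the 9 genes fell. The summed FPKM of the 14 neutrophil maturation genes in the table ran from 279 to 3013 in the 0 and 36 h libraries and from 67390 to 173200 in the 96 h libraries, although S100a9, a neutrophil granule gene, was listed at 0.0510 FPKM in 1 of these, WT library A. The sum of the 8 B lymphoid genes was 100.4 and 292 in WT and 256 and 315 in HMGN1-OE libraries at 0 h. At 96 h it was 0.714 to 6.89. At 0 h, 4 of the 8 were under 1 FPKM in WT library A, and 3 were in each of the other 0 h libraries. The 5 that were tested were all called lower from 0 to 96 h in both genotypes, where 77.2% and 62.4% of all tested genes were. Their median log2 changes were -2.89 in WT and -3.41 in HMGN1-OE cells. Pax5, a defining gene of B cells, was near the level without signal in the libraries of 0, 36, and 96 h. Cd3e and Cd8a of T cells and Cdh5 and Kdr of endothelium, which also expresses Erg and Cd34, were near that level as well. The sum of 8 mast cell and basophil genes was 436 to 2740 at 0 and 36 h and 126 to 538 at 96 h. The 10 granulocyte-monocyte progenitor genes summed to 7602 and 15650 in WT and 7292 and 5075 in HMGN1-OE libraries at 0 h, to 22060 and 17800 in WT and 15600 and 12240 in HMGN1-OE libraries at 36 h, and to 878 and 236 in WT and 937 and 2511 in HMGN1-OE libraries at 96 h. The WT sum was the higher at 0 and 36 h and the lower at 96 h. Both WT libraries were above both HMGN1-OE libraries for 4.67% of tested genes at 0 h and 84.4% at 36 h, and below them for 10.2% at 96 h. The order at 36 h thus does not set these genes apart. The median log2 change of these 10 genes from 0 to 96 h was -3.26 in WT, with 8 called lower and 2 higher, and -0.255 in HMGN1-OE cells, with 4 lower and 3 higher, where 77.2% and 62.4% of all tested genes were lower. On the scaled values the median was -1.29 in WT, with 5 lower and 2 higher, and 1.13 in HMGN1-OE cells, with 2 lower and 6 higher, where 39.6% and 37.3% of all tested genes were lower. Of the 11516 tested genes, 3741 in WT and 3394 in HMGN1-OE cells were called higher on the scaled values, and 496 and 585 as deposited. The endothelial sum of 7 genes, 12.5 to 271 over all libraries, was nearly all Pecam1. Over all libraries the erythroid sum was 1.51 to 41.0, the megakaryocyte and platelet sum 2.99 to 39.1, the T lymphoid sum 2.34 to 10.8, and the macrophage and dendritic cell sum 10.9 to 36.2. The part of these cells in the fall of the 9 genes, or in differences between genotypes, was not tested. Mouse Hmgn1, for which it was not tested whether reads of the human transgene count toward it, had 85.7 and 141 FPKM in WT and 200.6 and 97.6 FPKM in HMGN1-OE libraries at 0 h. At 96 h it had 11.1 and 4.72 FPKM in WT and 10.1 and 20.7 FPKM in HMGN1-OE libraries, and the genotypes overlapped at both times, so these values do not check the labels. In GENCODE vM21 all 9 are protein-coding genes, and exons of Cd34, Bcl11a, Sox4, and Myb overlap a gene on the other strand, whose reads a kit that does not mark strand cannot separate.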

How the data were processed

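RNA-seq of 12 libraries was analysed. The labels give polyA RNA. Per the paper's methods, the authors took a fixed number of cells with ERCC RNAs, aligned with Bowtie, computed RPKM, and normalized by loess on the ERCC RNAs. The submitters' processing notes name HISAT, Cufflinks 2.0.0, and mm9, without their roles, so which of them made the values is not settled. The deposited unit is FPKM after normalization. No read counts or depths are given, so no counting error is given, and no mm9 gene coordinates are printed. Groups came from the genotype and time in the labels and column names.

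From the deposited FPKM, log2(FPKM + 1) was tested with limma 3.58.1 in R 4.3.3 (trend, 6 group means, two-sided, Benjamini-Hochberg adjustment, calls at an adjusted p under 0.05), for the 11516 genes that reached 1 FPKM in 2 or more libraries. The p-values rest on the spread between libraries of a group, which the study calls biological replicates. On the deposited values this spread was pooled over genes, and that of the single gene did not enter. The steps were tested on simulated data with independent noise for each gene and library. That noise held no shift shared by a whole library, so the simulation cannot vouch for calls on the deposited values, whose library medians differ. The tables were made with Python 3.11.15, pandas 2.3.3, and numpy 2.4.6, and the figures with matplotlib 3.10.9.

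The 9 genes, the lists, and the tests were chosen with earlier results of these data known. From each list that is not of a cell type, up to 3 genes are named, those with the largest change from 0 to 96 h in WT cells among genes called in both genotypes, and the relative with the highest mean of each family. Crh, Crhr1, and Crhr2, Flt3 at 36 h, S100a9, and single markers were named after their values were seen. Some listed markers are not reported here by name. The alternatives were the median taken off each library, quantile normalization, a pseudocount of 0.1, no filter, a mean of at least 5 FPKM, limma without trend, with the robust option, or without moderation, and each library left out in turn. FPKM scaled to 1 median before the log, and the median-centred and scaled values without each library, were added after the values were seen.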

Additional observations from a re-analysis of the deposited data

How the results depend on the processing

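No paired analysis was possible because the data columns carry no replicate numbers that match those of the sample names. The calls of all 9 genes from 0 to 96 h held in both genotypes without each library in turn, and without the trend or moderation. The single calls of Crhbp depended on the setting and held with the robust option of limma. From 0 to 36 h in HMGN1-OE cells, and between genotypes at 0 h, 0 genes were called after median centring, scaling, quantile normalization, a pseudocount of 0.1, no filter, a mean of at least 5 FPKM, no trend, and no moderation, and 0 to 2 without each library in turn. From 36 to 96 h in WT cells, 5 genes were called after median centring. The steeper later fall was called for 7 genes in WT cells and for 1 after median centring, scaling, or quantile normalization, for 0 with no filter, and for 0 to 9 without each library in turn. In HMGN1-OE cells it was called for 0 genes with no filter or no moderation and for 0 to 2 without each library in turn. On the median-centred values without each library in turn, the count from 0 to 96 h was 5 to 6 in WT and 7 to 8 in HMGN1-OE cells, and that of the steeper later fall 1 to 5 and 0 to 2. On the scaled values these were 7 to 8 and 8 to 9, and 1 to 5 and 0 to 2. From 36 to 96 h in WT cells the scaled changes ran from -4.83 in Cd34 to -0.435 in Erg without WT 36 h library A. Without library B they ran from -3.06 in Cd34 to 0.931 in Erg, and fewer of the 9 genes were called lower.

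The log2 change from 0 to 36 h in WT cells changed sign after median centring for Hlf (-0.21), Erg (-0.39), Msi2 (-0.16), and Lmo2 (-0.25), after scaling (-0.19, -0.40, -0.17, and -0.27), and after quantile normalization (-0.19, -0.41, -0.18, and -0.30). From 36 to 96 h in WT cells, Erg was at 0.11, 0.25, and 0.25 on these scales, and Bcl11a at 0.47 after median centring. The 0 h difference of Sox4 was 0.058, 0.058, and 0.057. The interaction from 0 to 96 h was -0.0017, -0.07, and -0.063 for Lmo2, -0.33 for Sox4 after median centring, and 0.0032 for Msi2 and 0.41 for Bcl11a with a pseudocount of 0.1. Without each library in turn, the early WT change ran from -1.04 to 1.02 in Cd34, -0.53 to 1.07 in Hlf, -1.28 to 0.30 in Crhbp, -0.75 to 0.92 in Erg, -0.37 to 1 in Msi2, -0.50 to 0.46 in Bcl11a, -0.21 to 0.68 in Lmo2, and -1.26 to 0.55 in Sox4, and the early HMGN1-OE change of Myb from -0.002 to 0.63. The 0 h difference ran from 0.29 to 2.02 in Hlf, 0.94 to 2.01 in Crhbp, -0.23 to 0.35 in Cd34, -0.11 to 0.55 in Lmo2, -0.36 to 0.21 in Sox4, and -0.66 to 0.25 in Myb. The interaction from 0 to 96 h ran from -1.06 to 0.36 in Erg, -0.77 to 0.29 in Msi2, and -0.088 to 0.49 in Sox4. Apart from these scale and library effects the cause was not tested. The depth is unknown, and values near 0.1 FPKM carry no information on how far a gene fell.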
